A study of Saccharomyces cerevisiae with 12 samples.

Results

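The genes described here encode the proteases of the yeast vacuole and the inhibitors of 2 of them. They are the 8 genes PEP4, PRB1, PRC1, CPS1, APE3, DAP2, PBI2 and PAI3, picked by gene symbol from 5444 genes that could be named on the array. The rule uses no expression value, but the set was drawn up with earlier results of these data known. Each of the 8 was measured by 1 probe set. Expression came from 12 Affymetrix Yeast Genome 2.0 arrays, 3 for each of 4 conditions, of the Saccharomyces cerevisiae strain VTT C-10883 grown anaerobically in batch on a mixture of glucose and xylose. The conditions were the xylose pulse (HMF at 3.9 g/L and furfural at 1.2 g/L, added while xylose was being consumed), the xylose control (the xylose consumption phase without a pulse), the glucose pulse (the same addition while glucose was being consumed) and the glucose control (the glucose consumption phase without a pulse). Pulsed samples were drawn 1 hour after the addition. HMF and furfural are furan aldehydes formed when plant biomass is pretreated, and they inhibit yeast.

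All 4 conditions share 1 strain. It carries the xylose reductase and xylitol dehydrogenase genes of Scheffersomyces stipitis at the URA3 locus, an extra supply of the yeast xylulokinase gene XKS1 and a restored URA3, in the CEN.PK background. The study describes 3 bioreactors for each condition, and it names its references both as samples taken before the pulse and as cultivations without one. If a control and a pulse came from 1 bioreactor, the effect of the pulse and that of 1 hour of cultivation cannot be told apart. Xylose was consumed mostly after glucose had run out, and the study describes the cells as not growing in that phase. Between the phases, the sugar, the age of the culture and growth cannot be told apart. The phase labels were checked with genes that glucose represses. Of 7 such genes, 5 were higher in the xylose control than in the glucose control, beside 27.8% of all probe sets. Among them was MLS1, of the glyoxylate cycle, at a mean log2 expression of 9.95 against 3.41. The high-glucose transporter gene HXT1 fell, with 5.24 in the xylose control against 12.20 in the glucose control. ADH2, another of the 7, had a log2 fold-change of -0.30 (adjusted p = 0.146 from limma). ICL1 did not pass either, with 7.08 in the xylose control and 6.55 in the glucose control. MLS1 fell after the xylose phase pulse, to a mean of 7.67 in the xylose pulse, against 3.89 in the glucose pulse. The xylose pulse arrays did not follow their label on HXT3, the other high-glucose transporter gene, which rose after that pulse and had 12.88 in the xylose pulse, 9.90 in the xylose control and 12.94 in the glucose control. Its part in the results was not tested.

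The vacuole is the main degradative compartment of yeast, the counterpart of the lysosome. Its proteases are made as inactive precursors in the secretory pathway and are cut to their active form in the vacuole, in a cascade that starts with proteinase A, the product of PEP4, and continues with proteinase B, the product of PRB1. Carboxypeptidases and aminopeptidases then trim the peptides to amino acids. Small inhibitor proteins of the cytosol bind individual proteases that reach the wrong compartment. The genes of several of these enzymes are known to be repressed by glucose and to be more active when nutrients run low.

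Values are log2 expression, on which a step of 1 is a doubling. A linear model with 1 mean for each condition was fitted with limma to the 12 arrays over 5489 probe sets. A gene is said to have risen or fallen where the Benjamini-Hochberg adjusted p lay under 0.01 and the log2 fold-change was above 1 or below -1. Smaller differences are given as values. Errors of fold-changes are standard errors (SE), and intervals are 95% intervals of the model. A p-value from limma sets a difference against the spread between the 3 arrays of a condition, pooled over the 4 conditions and moderated. Arrays report brightness of separate probes, so levels are compared between conditions for 1 gene and never between genes. Detection calls were not used. The lower quartile of an array lay between 8.10 and 8.36, and a fold-change that involves a condition mean under 8.36 is not an exact size. Among the 8 members this concerns only PAI3 in the glucose control.

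Following the pulse given during xylose consumption no member rose, and PAI3 fell, by 1.04 on the log2 scale. Following the pulse given during glucose consumption, PRB1 and PAI3 rose, by 3.10-fold and 4.18-fold. The other members had log2 fold-changes between 0.15 and 0.71 there and did not pass both thresholds. An array reports the mean of a culture, so a change in all cells and a larger change in some of them cannot be told apart. In all 8 genes the response in the xylose phase lay below that in the glucose phase, with an adjusted p under 0.01 for each. Such a difference occurred in 35.1% of all probe sets, and one in the other direction in 29.2%. In the absence of a pulse, PRB1, PBI2 and PAI3 were higher in the xylose than in the glucose consumption phase, PAI3 by 44.9-fold. CPS1 had the opposite sign there.

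**Figure D1:**
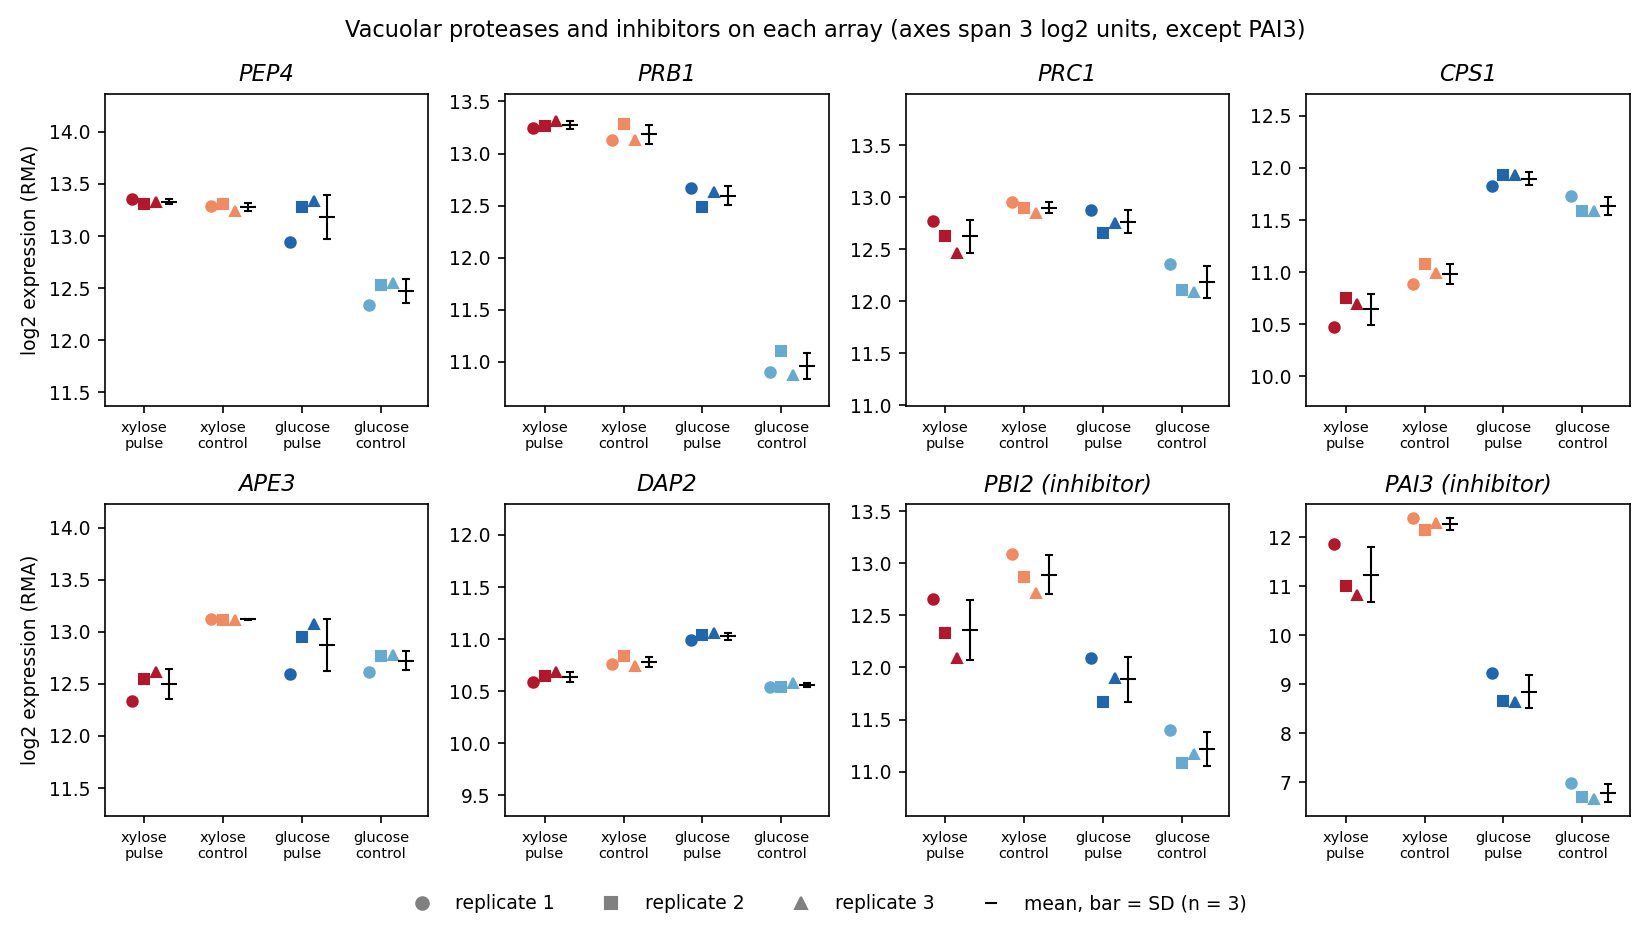
Log2 expression (vertical axes) of the 8 genes on each of the 12 arrays, with xylose pulse, xylose control, glucose pulse and glucose control from left to right, a symbol for each replicate and a black mean with its SD (n = 3). PRB1 and PAI3 have their lowest values on the 3 glucose control arrays, at 10.87 to 11.10 and 6.66 to 7.0, whereas CPS1 is lowest on the xylose pulse arrays, at 10.47 to 10.75.

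PEP4 encodes proteinase A, an aspartyl protease that activates the precursors of the other vacuolar hydrolases. Its log2 expression was 13.35, 13.31 and 13.33 on the xylose pulse arrays and 13.29, 13.31 and 13.24 on the xylose control arrays. On the glucose pulse arrays it was 12.95, 13.27 and 13.34, against 12.34, 12.53 and 12.55 on the glucose control arrays. The glucose control arrays were thus the low ones, and the arrays of the other 3 conditions overlapped, glucose pulse replicate 1 being the lowest of these. The log2 fold-change after the pulse was 0.05 in the xylose phase (95% interval -0.17 to 0.27, adjusted p = 0.677 from limma) and 0.71 in the glucose phase (SE 0.10, adjusted p = 3.82e-05), which is below a doubling. The xylose control exceeded the glucose control by 0.81 (SE 0.10, adjusted p = 5.16e-06). In order of level, the xylose pulse, the xylose control and the glucose pulse overlapped with the next in that order (adjusted p = 0.677 and 0.388), and the glucose control lay below all of them.

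PRB1 encodes proteinase B, a serine endoprotease of the subtilisin family that matures after proteinase A has acted. It had a log2 expression of 13.24, 13.26 and 13.31 in the xylose pulse and of 13.13, 13.29 and 13.13 in the xylose control. In the glucose pulse the values were 12.67, 12.49 and 12.63, against 10.91, 11.10 and 10.87 in the glucose control. The glucose arrays fell into separate sets, whereas the xylose arrays overlapped and all lay above those of the glucose phase. After the pulse in the xylose phase PRB1 had a log2 fold-change of 0.09 (95% interval -0.10 to 0.28, adjusted p = 0.374 from limma), and after that in the glucose phase it rose by 1.63 (SE 0.09, adjusted p = 3.75e-09). It was higher in the xylose control than in the glucose control by 2.22 (SE 0.09, adjusted p = 2.51e-11), a 4.66-fold difference. In order of level, xylose pulse and xylose control did not differ beyond their spread, the glucose pulse lay 0.59 below the xylose control (adjusted p = 2.85e-05) and the glucose control lay lowest. The change of PRB1 after the glucose phase pulse had an interval of 1.45 to 1.82, and that of PEP4 one of 0.49 to 0.93.

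The remaining 4 proteases remove single or paired residues from the ends of peptides, and none of them rose or fell after either pulse. PRC1, the gene of carboxypeptidase Y, a serine carboxypeptidase, had a log2 expression of 12.78, 12.63 and 12.46 in the xylose pulse and of 12.95, 12.89 and 12.85 in the xylose control. It had 12.88, 12.66 and 12.75 in the glucose pulse and 12.36, 12.11 and 12.09 in the glucose control. Both phases had arrays that did not overlap, with the pulsed arrays lower in the xylose phase and higher in the glucose phase. The log2 fold-changes were -0.28 (SE 0.10, adjusted p = 0.0288 from limma) and 0.58 (SE 0.10, adjusted p = 2.56e-04). The xylose control, glucose pulse and xylose pulse, in descending order, overlapped with the next among these 3 (adjusted p = 0.231 and 0.221), and the glucose control lay below the xylose pulse by 0.44 (adjusted p = 0.00142).

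CPS1 encodes carboxypeptidase S, a zinc-dependent carboxypeptidase that travels to the vacuole through multivesicular bodies. It was lower in the xylose phase than in the glucose phase, pulsed or not, and between the controls it was the only such member. Between the pulses DAP2 and APE3 also had log2 fold-changes below 0, at -0.39 and -0.38 (adjusted p = 1.32e-04 and 0.00953 from limma). PRC1 had -0.14 there (adjusted p = 0.221). The log2 expression of CPS1 was 10.47, 10.75 and 10.70 in the xylose pulse and 10.89, 11.07 and 10.99 in the xylose control. It was 11.82, 11.94 and 11.93 in the glucose pulse and 11.73, 11.59 and 11.58 in the glucose control. No arrays of different conditions overlapped. CPS1 fell by 1.25 on the log2 scale in the xylose pulse against the glucose pulse (SE 0.09, adjusted p = 2.69e-08 from limma), and between the controls it had -0.65 (SE 0.09, adjusted p = 1.62e-05), short of a 2-fold change. Its responses to the pulse were -0.34 in the xylose phase (adjusted p = 0.00486) and 0.26 in the glucose phase (adjusted p = 0.0227).

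APE3 encodes aminopeptidase Y, a metalloprotease of the vacuole lumen. It had a log2 expression of 12.33, 12.55 and 12.62 in the xylose pulse against 13.13, 13.12 and 13.11 in the xylose control, which are sets that do not overlap. In the glucose phase the arrays overlapped, with 12.60, 12.95 and 13.08 in the glucose pulse and 12.62, 12.77 and 12.77 in the glucose control. The log2 fold-change was -0.62 in the xylose phase (SE 0.12, adjusted p = 3.95e-04 from limma), the lowest among the 6 protease genes, and 0.15 in the glucose phase (95% interval -0.10 to 0.41, adjusted p = 0.261). In order of level, from the xylose control through the glucose pulse and the glucose control to the xylose pulse, no neighbours had an adjusted p under 0.01 (adjusted p = 0.0673, 0.261 and 0.0939), although the xylose control arrays all lay above those of the glucose pulse.

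DAP2 encodes dipeptidyl aminopeptidase B, which is anchored in the vacuolar membrane. It varied least, with 10.59, 10.64 and 10.68 in the xylose pulse, 10.76, 10.83 and 10.74 in the xylose control, 10.99, 11.04 and 11.06 in the glucose pulse and 10.54, 10.54 and 10.58 in the glucose control. The glucose pulse arrays lay above all others. DAP2 had a log2 fold-change of -0.14 after the pulse in the xylose phase (95% interval -0.29 to 0.01, adjusted p = 0.0821 from limma) and of 0.47 in the glucose phase (SE 0.07, adjusted p = 4.14e-05). It was thus the only protease gene with its highest level in the glucose pulse apart from CPS1, and the glucose pulse differed from the next condition, the xylose control, by 0.25 (adjusted p = 0.00397). The xylose pulse arrays lay wholly below those of the xylose control and wholly above those of the glucose control, but neither difference had an adjusted p under 0.01 (adjusted p = 0.0821 and 0.273).

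Both inhibitor genes had log2 fold-changes below 0 after the xylose phase pulse and above 0 after the glucose phase pulse. PBI2 encodes the inhibitor of proteinase B, which also forms a complex with thioredoxin that takes part in vacuole fusion. It had a log2 expression of 12.66, 12.33 and 12.09 in the xylose pulse and of 13.09, 12.86 and 12.71 in the xylose control, against 12.09, 11.67 and 11.90 in the glucose pulse and 11.40, 11.09 and 11.17 in the glucose control. Pulsed arrays were all lower than their controls in the xylose phase and all higher in the glucose phase. The log2 fold-changes were -0.53 (SE 0.16, adjusted p = 0.00831 from limma) and 0.67 (SE 0.16, adjusted p = 0.00193), neither of them 2-fold. PBI2 was higher in the xylose control than in the glucose control by 1.67 (SE 0.16, adjusted p = 2.29e-07), a 3.18-fold difference. The xylose control had the highest level, followed by the xylose pulse, the glucose pulse and the glucose control, and of these neighbours only the pulses missed an adjusted p under 0.01 (adjusted p = 0.0126).

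PAI3 encodes the inhibitor of proteinase A, a short protein that folds into a helix on binding to the enzyme. It spanned the widest range among the 8 genes. Its log2 expression was 11.87, 11.02 and 10.82 in the xylose pulse, 12.39, 12.15 and 12.29 in the xylose control, 9.24, 8.67 and 8.65 in the glucose pulse and 7.0, 6.70 and 6.66 in the glucose control. The arrays of the 4 conditions formed 4 sets without overlap. The glucose control values lay under the lower quartile of the arrays, so fold-changes against them are not exact. PAI3 rose by a log2 fold-change of 2.07 after the pulse in the glucose phase (SE 0.23, adjusted p = 4.47e-06 from limma). It was higher in the xylose control than in the glucose control by 5.49 (SE 0.23, adjusted p = 5.87e-11) and in the xylose pulse than in the glucose pulse by 2.39 (SE 0.23, adjusted p = 5.16e-07).

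The fall of PAI3 after the pulse in the xylose phase was less firm. The log2 fold-change was -1.04 (SE 0.23, adjusted p = 0.00146 from limma), and the pulsed arrays were spread over more than 1 unit. The differences between pulse and control of the same replicate number were -0.52, -1.13 and -1.47. Without xylose control replicate 1 the log2 fold-change was -0.98, without xylose pulse replicate 2 it was -0.93 and without xylose pulse replicate 3 it was -0.83, none of which passes the limit of 1, although the adjusted p stayed under 0.01 in each case.

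**Figure D2:**
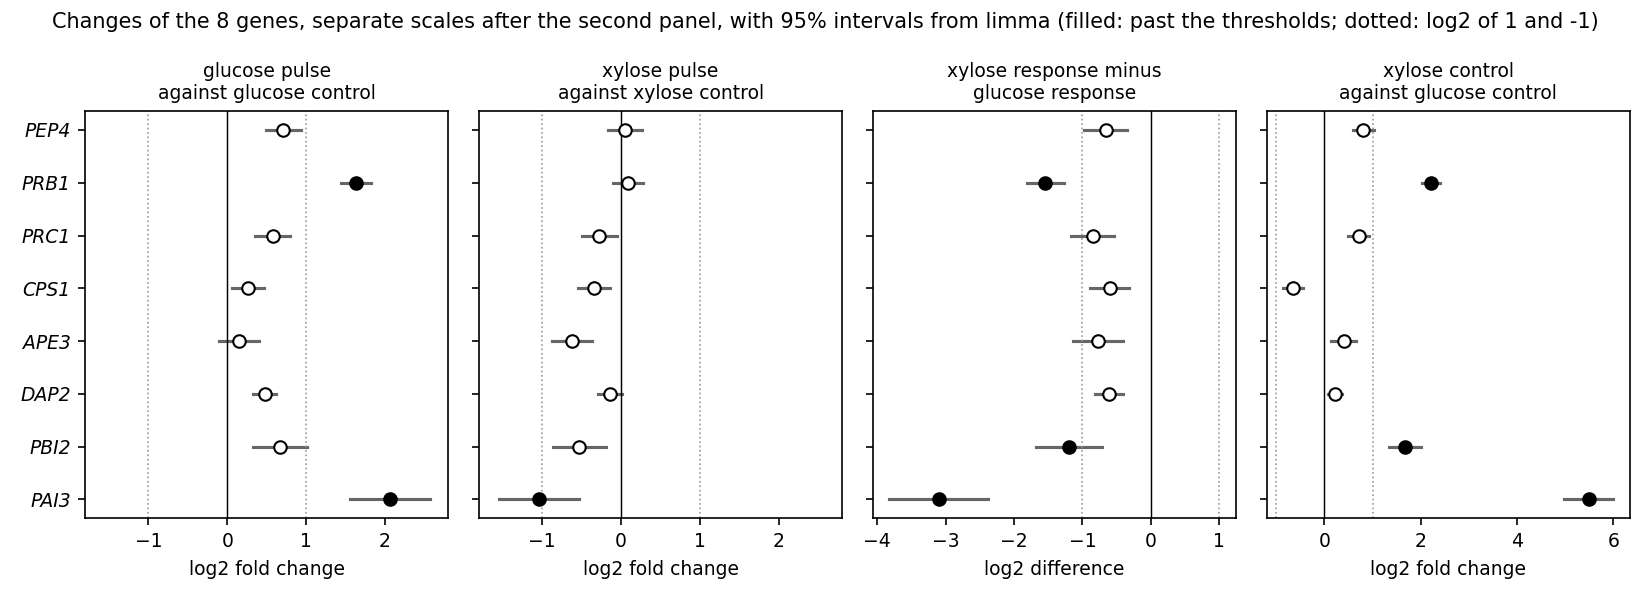
Log2 fold-changes (horizontal axes) of the 8 genes in 3 comparisons and, in the third panel, the xylose response minus the glucose response, with 95% intervals from limma and filled circles where both thresholds were passed. In the third panel all 8 intervals lie below 0, and the differences themselves run from -3.10 for PAI3 to -0.60 for CPS1.

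Counted over the 8 genes, 1 fell after the pulse in the xylose phase, beside 8.38% of all 5489 probe sets, and 0 rose, beside 11.8%. With an adjusted p under 0.01 at any size, 4 members were lower there and 0 were higher, beside 32.9% and 27.9%. The pulsed arrays lay wholly below the control arrays for 6 of the 8, and for 40.6% of all probe sets. PEP4 and PRB1 were the 2 that overlapped. The 8 genes had a median log2 fold-change of -0.31, beside -0.08 over all probe sets. After the pulse in the glucose phase 2 rose and none fell, beside 11.6% and 9.55% of all probe sets. At any size, 6 were higher and none lower, beside 30.6% and 27.1%. The pulsed arrays lay wholly above the control arrays for 7 of the 8, and for 37.3% of all probe sets, the exception being APE3. The median was 0.62, beside 0.03 over all probe sets.

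The difference between the responses was tested as a contrast of its own. It passed both thresholds for PAI3 at -3.10 (SE 0.33, adjusted p = 2.22e-06 from limma), for PRB1 at -1.54 (SE 0.12, adjusted p = 1.47e-07) and for PBI2 at -1.20 (SE 0.22, adjusted p = 2.86e-04). These are 3 of 8 genes, beside 19.9% of all probe sets, and no member passed in the other direction, beside 19%. The other 5 had differences between -0.85 for PRC1 and -0.60 for CPS1, with adjusted p-values between 7.72e-05 and 0.00104. Differences below 0 with an adjusted p under 0.01 thus occurred in 8 of 8 genes, beside 35.1% of all probe sets, at a median of -0.81 beside -0.13. Differences above 0 occurred in 29.2% of all probe sets and in none of the 8.

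Between the controls, 3 of the 8 genes were higher in the xylose phase at both thresholds, beside 27.8% of all probe sets, and none was lower, beside 27.2%. With an adjusted p under 0.01 and no limit on size, 7 were higher, beside 42.3%, and CPS1 was lower, beside 39.2%. The arrays of the xylose control lay wholly above those of the glucose control for the same 7, beside 46.1%, and wholly below for CPS1, beside 42.6%. Between the pulses, PAI3 was higher and CPS1 lower in the xylose phase, which is 1 of 8 in each direction, beside 20.8% and 22.9% of all probe sets. At any size 2 were higher and 3 lower, beside 35.7% and 40.4%. The arrays of the 2 pulses overlapped for PEP4, PRC1, APE3 and PBI2.

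To compare each inhibitor with its target, the log2 value of the protease gene was subtracted from that of the inhibitor gene on the same array. TFS1, the gene of the inhibitor of carboxypeptidase Y, was added for this purpose. Such a difference has no absolute meaning, but a change of it between conditions shows that the genes changed unequally. With 3 arrays against 3, the smallest p that an exact two-sided permutation test can give is 0.1.

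**Figure D3:**
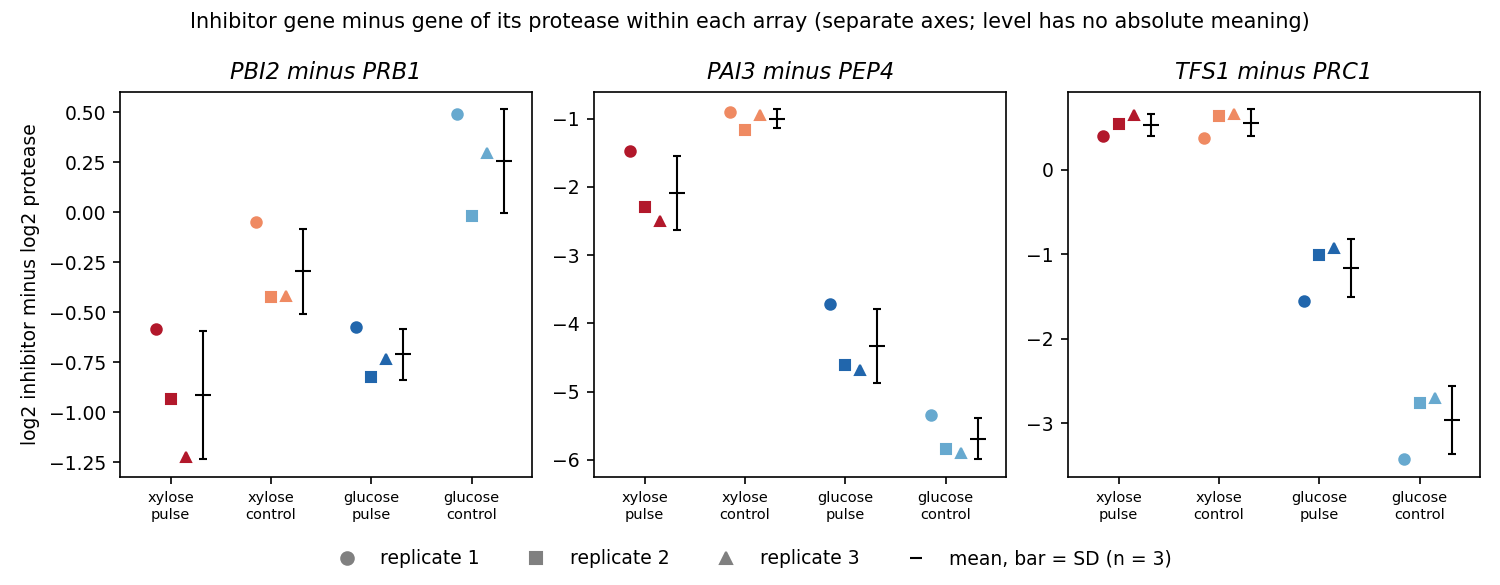
Log2 inhibitor minus log2 protease (vertical axes) for the pairs PBI2 and PRB1, PAI3 and PEP4, and TFS1 and PRC1 on each array, with the 4 conditions from xylose pulse to glucose control, a symbol for each replicate and a black mean with its SD (n = 3). PAI3 minus PEP4 is lowest on the glucose control arrays, at -5.89 to -5.34, and highest on the xylose control arrays, at -1.16 to -0.90.

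PBI2 minus PRB1 was -0.58, -0.93 and -1.23 in the xylose pulse against -0.05, -0.42 and -0.42 in the xylose control, a change of -0.62 (SE 0.22, exact permutation p = 0.1). It was -0.57, -0.82 and -0.73 in the glucose pulse against 0.49, -0.02 and 0.30 in the glucose control, a change of -0.97 (SE 0.17, exact permutation p = 0.1). Relative to PRB1, PBI2 was therefore lower after both pulses, with no overlap of arrays. In the glucose phase this came with PRB1 having the larger increase of the pair, and in the xylose phase with -0.53 for PBI2 and 0.09 for PRB1. For the xylose control against the glucose control the change was -0.55 (SE 0.19, exact permutation p = 0.1). Its sign is opposite to that of PAI3 minus PEP4 and of TFS1 minus PRC1 between the controls.

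PAI3 minus PEP4 changed in opposite directions. In the xylose phase the change was -1.09 (SE 0.32, exact permutation p = 0.1), with -1.48, -2.29 and -2.51 in the pulse against -0.90, -1.16 and -0.95 in the control. In the glucose phase it was 1.35 (SE 0.36, exact permutation p = 0.1), with -3.71, -4.61 and -4.69 in the pulse against -5.34, -5.83 and -5.89 in the control. The xylose control exceeded the glucose control by 4.68 (SE 0.19, exact permutation p = 0.1), or 25.7-fold as a ratio of the genes. PAI3 lay under the lower quartile of the arrays in the glucose control, so the sizes that involve that condition are not exact.

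TFS1 minus PRC1 was 0.40, 0.55 and 0.65 in the xylose pulse and 0.38, 0.64 and 0.66 in the xylose control, which overlap (exact permutation p = 0.9). In the glucose pulse it was -1.55, -1.0 and -0.92, against -3.43, -2.76 and -2.70 in the glucose control, a change of 1.80 (SE 0.31, exact permutation p = 0.1). The xylose control exceeded the glucose control by 3.53 (SE 0.25, exact permutation p = 0.1).

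TFS1 itself had a log2 expression of 13.17, 13.18 and 13.11 in the xylose pulse, 13.33, 13.53 and 13.51 in the xylose control, 11.32, 11.66 and 11.83 in the glucose pulse and 8.93, 9.35 and 9.38 in the glucose control. It rose after the pulse in the glucose phase, by 2.38 (SE 0.14, adjusted p = 8.44e-09 from limma), and was higher in the xylose control than in the glucose control by 4.24 (adjusted p = 4.28e-12). The gene YHR138C, which resembles PBI2 in sequence, had 13.33, 13.09 and 13.05 in the xylose pulse, 13.42, 13.34 and 13.37 in the xylose control, 13.22, 13.11 and 13.07 in the glucose pulse and 10.61, 10.60 and 10.57 in the glucose control. Its glucose control arrays alone were low, and the arrays of the 2 pulses overlapped. YHR138C rose by 2.54 after the pulse in the glucose phase (SE 0.09, adjusted p = 7.07e-11). The thioredoxin genes TRX1 and TRX2, whose products bind the product of PBI2, had log2 fold-changes of -0.64 and -0.03 in the xylose phase and of -0.07 and 0.79 in the glucose phase, and neither rose or fell.

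Other vacuolar hydrolases were described in the same way, from a list of 13 genes of which 11 were measured. After the pulse in the xylose phase none rose, beside 11.8% of all probe sets. ATG15, a lipase that opens autophagic bodies, fell by 1.19 and the aminopeptidase gene APE1 by 1.03 on the log2 scale, which is 2 of 11 beside 8.38%. After the pulse in the glucose phase 5 rose and none fell, beside 11.6% and 9.55% of all probe sets, at a median log2 fold-change of 0.97. The 5 were RNY1, a ribonuclease of the T2 family, at 1.84, ECM38, which breaks down glutathione, at 1.56, the acid trehalase gene ATH1 at 1.30, the alpha-mannosidase gene AMS1 at 1.22 and the glucoamylase gene SGA1 at 1.19. The response was lower in the xylose phase than in the glucose phase, at both thresholds, for 8 of the 11, beside 19.9% of all probe sets. In the opposite direction it passed only for the alkaline phosphatase gene PHO8, with 0.93 in the xylose phase and -0.81 in the glucose phase, short of the thresholds in each, and a difference of 1.74 (SE 0.14, adjusted p = 1.48e-07 from limma). Between the controls 7 of the 11 were higher in the xylose phase, beside 27.8% of all probe sets, among them ATH1 by 3.21 and AMS1 by 3.02. ATG15 had a mean of 7.35 in the xylose control and 3.70 in the glucose control, and SGA1 had 9.15 and 5.92. PFF1, a protease of the vacuolar membrane, was lower, with 8.19 in the xylose control and 10.82 in the glucose control. The sizes are not exact for ATG15, SGA1, PFF1 and RNY1, which had a mean under 8.36 in a condition compared.

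The genes that carry these enzymes to the vacuole gave a mixed picture. Of 16 genes of the sorting receptor, carriers and retromer, none rose or fell after the xylose phase pulse, beside 11.8% and 8.38% of all probe sets, and 4 rose after the glucose phase pulse, beside 11.6%, among them the clathrin adaptor gene GGA1 at 1.61 and the retromer gene VPS29 at 1.09. The receptor of carboxypeptidase Y, given here under its symbol PEP1 and also known as VPS10, had 0.71 in the xylose phase and 0.07 in the glucose phase and did not pass. Between the controls GGA1 was higher in the xylose phase by 1.93, whereas its relative GGA2 was lower, with a mean of 7.45 in the xylose control and 11.03 in the glucose control. Of 12 genes of vacuole tethering and fusion, none rose or fell after the glucose phase pulse, beside 11.6% and 9.55% of all probe sets. After the xylose phase pulse 3 fell and 1 rose, beside 8.38% and 11.8%, with VPS41 at -1.99, PEP5 at -1.34, PEP3 at -1.22 and VPS8 at 1.11. The sizes of these 4 are not exact, since each had a mean under 8.36 in the xylose pulse or the xylose control. The ESCRT machinery and related ubiquitin-dependent sorting direct cargo such as the CPS1 product into multivesicular bodies. Of 18 such genes, none rose or fell after the xylose phase pulse, beside 11.8% and 8.38% of all probe sets. With an adjusted p under 0.01 at any size, 11 were lower and 2 higher there, beside 32.9% and 27.9%. Their median log2 fold-change was -0.41, beside -0.08 over all probe sets. After the glucose phase pulse 2 rose, BUL1 at 1.63 and VPS27 at 1.03, a share near the 11.6% of all probe sets. Golgi processing proteases, of which 3 were measured, did not pass after either pulse. Of all probe sets, 11.8% rose and 8.38% fell in the xylose phase, and 11.6% and 9.55% in the glucose phase.

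**Figure D4:**
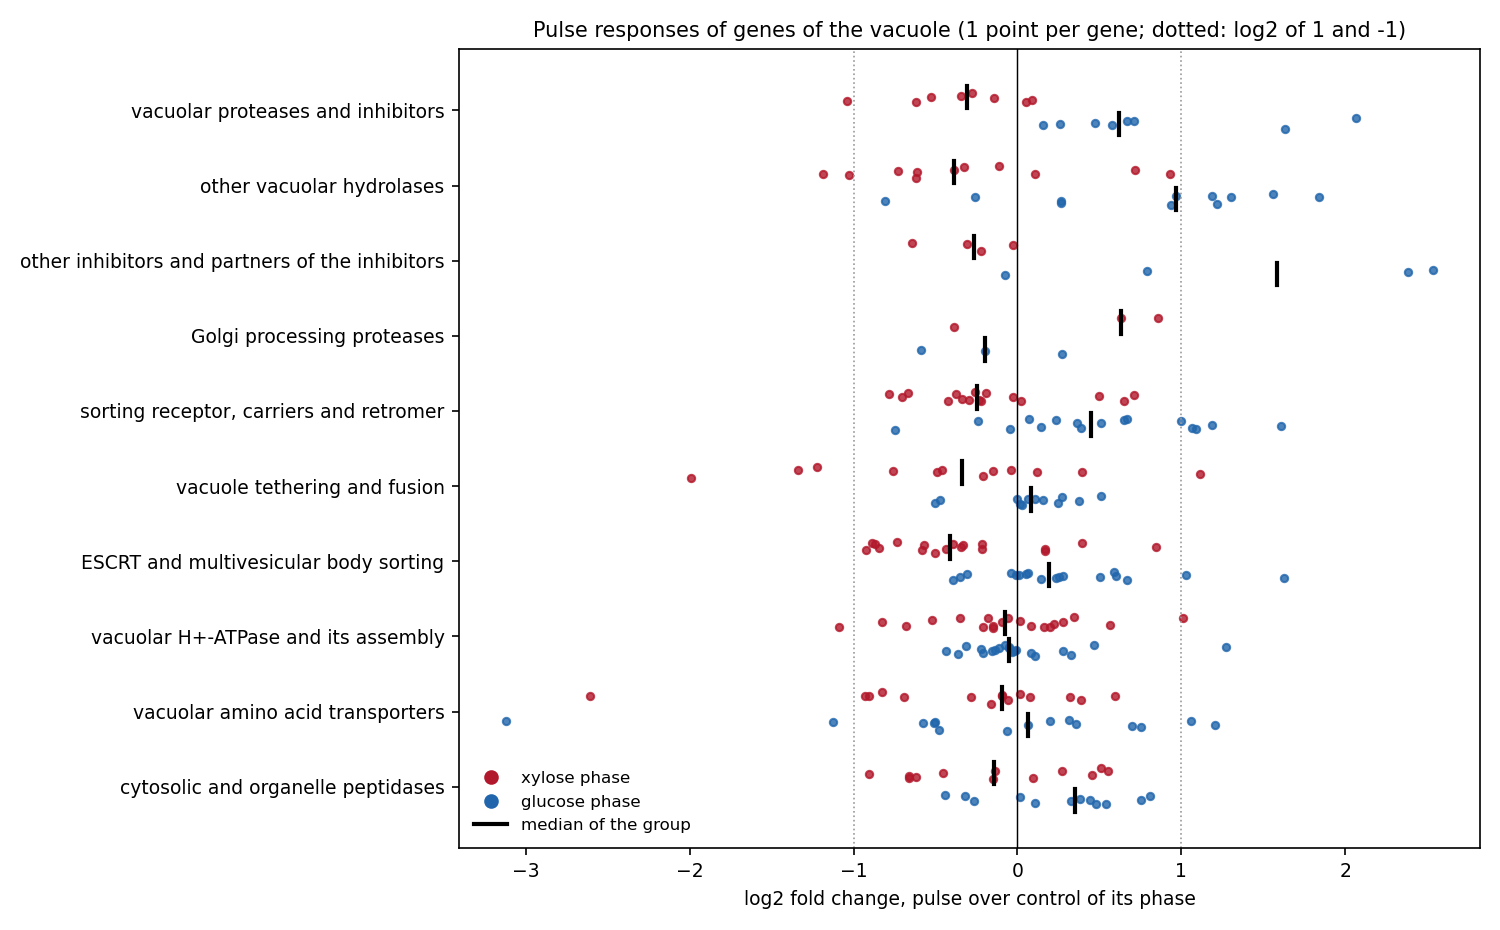
Log2 fold-change of the pulse over the control of its phase (horizontal axis) for each measured gene of 10 groups, in the xylose phase (red) and the glucose phase (blue), with the median of each group as a black bar. The medians of the vacuolar proteases and inhibitors are -0.31 and 0.62, those of the other vacuolar hydrolases -0.39 and 0.97, and those of the vacuolar H+-ATPase genes -0.08 and -0.05.

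The vacuolar H+-ATPase acidifies the lumen in which the proteases work. Of its 20 genes and those of its assembly, VPH2 rose after both pulses, at 1.01 in the xylose phase and 1.27 in the glucose phase, and RAV1 fell by 1.09 on the log2 scale in the xylose phase. That is 1 of 20 in each direction in the xylose phase, beside 11.8% and 8.38% of all probe sets. In the glucose phase it is 1 of 20 higher, beside 11.6%, and none lower, beside 9.55%. In the xylose phase VPH2 and RAV1 each had a mean under 8.36 in a condition compared. Between the controls 9 of the 20 were lower in the xylose phase and 1 was higher, beside 27.2% and 27.8% of all probe sets, at a median log2 fold-change of -0.84. VMA22, an assembly factor, had a mean of 6.98 in the xylose control and 10.33 in the glucose control. VMA5 of the peripheral sector had a log2 fold-change of -2.07 and the assembly factor gene VMA21 one of -1.59. This is the opposite sign to that of 7 of the 8 members. Of 15 measured genes of vacuolar amino acid transporters, VBA3 fell after the xylose phase pulse, with a mean of 4.48 in the xylose pulse and 7.08 in the xylose control, both under the lower quartile. This is 1 of 15, beside 8.38% of all probe sets, and none rose, beside 11.8%. In the glucose phase 2 rose and 2 fell, near the 11.6% and 9.55% of all probe sets. AVT3 had 1.20, and RTC2 had a mean of 7.13 in the glucose pulse and 10.25 in the glucose control. Of 12 peptidases outside the vacuole, none rose or fell after either pulse. The shares of all probe sets were 11.8% and 8.38% in the xylose phase and 11.6% and 9.55% in the glucose phase. With an adjusted p under 0.01 at any size, 3 peptidase genes were higher and 5 lower in the xylose phase, beside 27.9% and 32.9%. In the glucose phase 6 were higher and 2 lower, beside 30.6% and 27.1%.

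For each member, the genes whose log2 values were most like its own over the 12 arrays were sought by Pearson's r. The arrays fall into 4 conditions, so that r mainly reflects the condition means, and it is given as a description. PRB1 was closest to the glucokinase gene GLK1 (r = 0.99) and the ABC transporter gene PDR10 (r = 0.99), PAI3 to UBP9, a ubiquitin-specific protease, and YPR127W (r = 0.99 each), and PBI2 to SMY1 and LST7 (r = 0.98 each). PEP4 was closest to RCR2 and to VBA2, a vacuolar transporter of basic amino acids (r = 0.98 each). CPS1 was closest to GAS5, a glucanosyltransferase of the cell wall, and LCL2 (r = 0.99 each), DAP2 to the endosomal SNARE gene SYN8 and to TRE2 (r = 0.98 each), and PRC1 to AHC2 (r = 0.99) and LIN1 (r = 0.97). APE3 had the least similar neighbours, SIF2 and TVP38 (r = 0.93 each).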

How the data were processed

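Each deposited value is the log2 expression of a probe set. The authors computed it from Affymetrix Yeast Genome 2.0 scans by RMA (background correction, quantile normalization and median polish for each probe set) in R. The values lie between 1.15 and 14.5. Of 5705 probe sets, 5489 carry 1 gene in the platform's annotation of GEO, 216 carry no named gene and 0 carry several, and 12 symbols were updated from RefSeq. The named probe sets represent 5444 genes. Where a gene had more than 1 probe set (43 genes), the brightest stood for it. Nothing was filtered or added to the deposited values.

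limma 3.58.1 in R 4.3.3 was used with 8 residual and 4.53 prior degrees of freedom, and p-values were adjusted over 5489 probe sets. Python 3.11.15 with scipy 1.17.1 gave the exact permutation tests, and matplotlib 3.10.9 the figures. The model was tested on simulated data. Arrays of one condition correlated at 0.992 to 0.998. Precision is limited by having 3 arrays a condition.

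The 8 members and the gene lists were chosen with earlier results of these data known. The text names all members, up to 3 called genes with the smallest adjusted p of each list in each comparison, TFS1, YHR138C, TRX1 and TRX2, and the 2 genes most like each member. A few list genes outside this rule (AMS1, SGA1, PHO8, PEP1 and PEP3, among others) are named after their values were seen. ATG42, PPN2 and VBA5 were not analysed here.

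To see whether replicate numbers pair the arrays, deviations from the condition means were correlated. Same-numbered xylose pulse and xylose control arrays gave 0.569, 0.299 and 0.305, and same-numbered glucose arrays gave 0.474, 0.381 and 0.145. Differently numbered arrays gave -0.479 to 0.328 in the xylose phase and -0.465 to 0.285 in the glucose phase. The highest of these, for pulse replicate 3 and control replicate 2, exceeded the same-numbered value of replicate 3 in both phases. The check therefore does not settle whether the numbers pair samples within a phase. Between the phases, same-numbered pulses gave 0.599, 0.201 and 0.395 and same-numbered controls 0.419, 0.237 and 0.0687. The unpaired model was kept, and a replicate block, subsets of arrays, probe sets and replicates, other normalizations, a trended variance prior and other thresholds were alternatives.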

Additional observations from a re-analysis of the deposited data

Results flagged for a closer look

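The response to the pulse differed between the xylose and the glucose consumption phase in all 8 members, by limma's test of the difference itself. The difference, xylose response minus glucose response on the log2 scale, was -3.10 for PAI3, -1.54 for PRB1, -1.20 for PBI2, -0.85 for PRC1, -0.77 for APE3, -0.66 for PEP4, -0.61 for DAP2 and -0.60 for CPS1. It was -2.69 for TFS1, -2.76 for YHR138C, -0.82 for TRX2 and -0.57 for TRX1. Each of these had an adjusted p under 0.01, and only PAI3, PRB1, PBI2, TFS1 and YHR138C also passed the limit of 1. With an adjusted p under 0.01, 35.1% of all probe sets had a negative difference and 29.2% a positive one.

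The number of list genes whose responses differed at both thresholds was 9 of 11 for the other vacuolar hydrolases, 8 of 16 for the sorting receptor, carriers and retromer, 4 of 18 for the ESCRT genes, 2 of 12 for vacuole tethering and fusion, 6 of 15 for the amino acid transporters, 1 of 20 for the vacuolar H+-ATPase and 2 of 12 for peptidases outside the vacuole. Over all probe sets, 19% differed upwards and 19.9% downwards at both thresholds, and 6 of 15 is near the sum of these. The shares of the ESCRT, tethering and fusion, H+-ATPase and outside peptidase genes lay below that sum. All 12 arrays entered these tests.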

How the results depend on the processing

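The fit with a replicate block gave the same calls as the unpaired model for all 8 members in all 5 comparisons, with PAI3 at -1.04 (adjusted p = 2.42e-04) after the pulse in the xylose phase, PRB1 at 1.63 after that in the glucose phase, and 1 member lower in the xylose phase and 2 higher in the glucose phase. The within-number changes of the inhibitor and protease pairs, such as 1.35 for PAI3 minus PEP4 in the glucose phase, were those of the unpaired means, and 3 pairs cannot give an exact p below 0.25.

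With no limit on the log2 fold-change, 4 members were lower after the xylose phase pulse, beside 32.9% of all probe sets. After the glucose phase pulse 6 were higher, beside 30.6%, and in the difference between the responses 8 were lower, beside 35.1%. Between the controls 7 were higher and 1 was lower, beside 42.3% and 39.2%. Between the pulses 2 were higher and 3 lower, beside 35.7% and 40.4%. Leaving out 1 array moved only the count of members lower after the xylose phase pulse, which ranged from 0 to 1. It was 0 without xylose control replicate 1, without xylose pulse replicate 2 and without xylose pulse replicate 3. The change of TFS1 minus PRC1 in the xylose phase was -0.03 and turned to 0.038, 0.0108 and 0.0215 without xylose pulse replicate 1, xylose control replicate 2 and xylose control replicate 3. It ranged from -0.119 to 0.038 when 1 array was left out. No other pair changed direction.

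The 2 other normalizations, the trended variance prior, an adjusted p under 0.05, all probe sets, the dimmest 25% left out, only the arrays compared and replicates 2 and 3 alone changed no call of a member. Signal over background was not tested. This limits values under the lower quartile of the arrays, among the members PAI3 in the glucose control, and among other genes named ATG15, SGA1, VBA3, MLS1, HXT1, PEP5, VMA22 and others.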
